A study of Arabidopsis thaliana with 12 samples.

Results

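The comparison set the 3 arrays of wox4-1 stem bases against the 3 arrays of wild-type stem bases, 6 of the 12 arrays in the series, across 22746 probe sets. It asks which transcripts differ, in the part of the Arabidopsis stem that thickens, when WOX4 is mutated. Both genotypes are of the ecotype Columbia, and wox4-1, the single allele used, is the only genetic difference the labels give. Each array holds RNA of 13 to 17 pooled stems and is labelled a biological replicate, and p-values therefore measure the spread between pools. All plants grew for 3 weeks under 8 h of light and then under 16 h. Stems were cut at 15 to 20 cm height and an age of 49 to 58 days, when the first internode was at least 3.5 cm long. A fragment of 0.5 cm was taken at the base. The other 6 arrays hold fragments of the same 2 genotypes cut 1.5 to 2.0 cm higher than the top leaf of the rosette, called the internode here. They serve to ask whether the difference is particular to the base. They also enter the same fit, and so help to set the spread behind every p-value at the base.

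WOX4 is a homeobox transcription factor of the vascular cambium, the layer of dividing cells that gives rise to xylem on its inner side and phloem on its outer side. The peptide TDIF, made in the phloem from CLE41 and CLE44 precursors, binds the receptor kinase PXY on cambium cells and acts through WOX4 to keep these cells dividing. The cambium is most active near the stem base, where the ring of vascular tissue closes and the stem grows in girth.

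Expression was read on ATH1 arrays as 1 log2 value per probe set, normalised by the authors with RMA. Changes are log2 differences, wox4-1 minus wild type, with the standard error (SE) of limma, and a probe set was called at a Benjamini-Hochberg adjusted p under 0.05 over all 22746 probe sets. The words rose and fell mean higher and lower in wox4-1 among called probe sets. A mean at or under log2 4 lies near the low end of the array, and a change that involves such a mean is given as limited by it. The gene table used gives a single gene for 13513 probe sets, several for 503 and no name for 8730. None bears the name WOX4, and the mutant labels could not be checked on the gene itself, which is not analysed here. Each fragment holds many cell types, and fewer cells of a type cannot be told apart from less RNA per cell.

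Replicate 2 of wild type stood apart before any genotype was compared. At the base, 89 probe sets read at least 1 log2 unit higher on it than on each of the other 5 base arrays, 36 of them by at least 2, while the other 5 arrays had between 0 and 7 such probe sets. Of the 89, 61 were also at least 1 unit higher in wild-type internode replicate 2 than on the other internode arrays. Genes for LEA proteins, which accumulate in drying tissue, were among them. LEA4-5 read 9.12 on this array and 3.29 to 4.28 on the other 5 base arrays. LTI30, which encodes a dehydrin, read 11.61 against 7.02 to 7.88, and SAG29, a SWEET family gene of senescence and stress, 9.98 against 4.68 to 6.64. These genes were chosen after their values were seen. They made large differences with a wide spread: LEA4-5 had a base difference of -2.06 that became -0.32 without this array, and LTI30 moved from -1.14 to 0.26, and neither was called (limma adjusted p 0.371 and 0.531). Of the 89 probe sets, 1 was called. By this count wox4-1 base replicate 1 stood apart less, with 22 probe sets at least 1 unit below all other base arrays. By mean correlation with the other arrays of its group it stood apart more. That value was 0.9923, the lowest of the base arrays, against 0.9933 for wild-type base replicate 2.

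**Figure D1:**
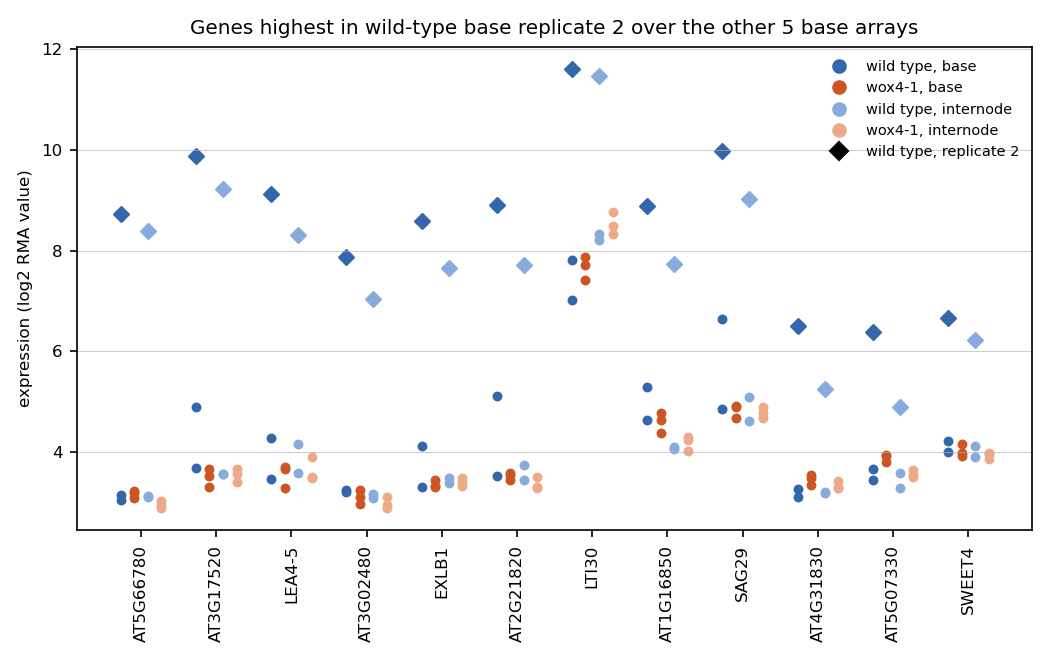
Log2 RMA values on all 12 arrays of the 12 named genes that exceeded the other 5 base arrays most on wild-type base replicate 2, with diamonds for wild-type replicate 2 at both positions and circles for all other arrays. On the replicate 2 arrays LEA4-5 reads 9.12 (base) and 8.30 (internode), and at most 4.28 on the other 10.

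At the base 1146 of 22746 probe sets (5.04%) were called, 574 higher (2.52%) and 572 lower (2.51%) in wox4-1. Most differences were small, with a median size of log2 0.49 (1.40-fold), quartiles of 0.40 and 0.64, and a range of 0.26 to 2.13, and 66 probe sets changed at least 2-fold, 36 upward and 30 downward. In 1145 of the 1146 the 3 mutant arrays and the 3 wild-type arrays did not overlap, as was so for 24.9% of all probe sets. Among the probe sets with 1 gene, 602 of 13513 were called (4.45%), and the other 544 calls have no single gene name here. The share called was 2.49% at mean levels under log2 5 and 6.69% to 7.27% at higher levels.

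Without wild-type base replicate 2 the count was 342 (1.5%), 182 higher (0.8%) and 160 lower (0.703%). Of these, 340 were among the 1146, 181 higher and 159 lower, and 57 of the 66 changes of at least 2-fold were kept. All 1146 kept their sign, and their median size was 0.48 instead of 0.49. Other base arrays also changed the count: 548 probe sets were called without wild-type replicate 1, 650 without wild-type replicate 3, and 609 without mutant replicate 3. Calls numbered 881 without mutant replicate 1 and 1459 without mutant replicate 2, and 291 probe sets, 161 higher and 130 lower, were called whichever base array was left out. Mutant replicate 1 was the mutant array farthest from the wild-type mean in 586 of the 1146, replicate 2 in 226 and replicate 3 in 334. Median centring of the arrays gave 1378 calls, 72.4% of them higher instead of 50.1%, by a shift of 0.063 in all differences that turned the sign of none of the 1146.

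**Figure D2:**
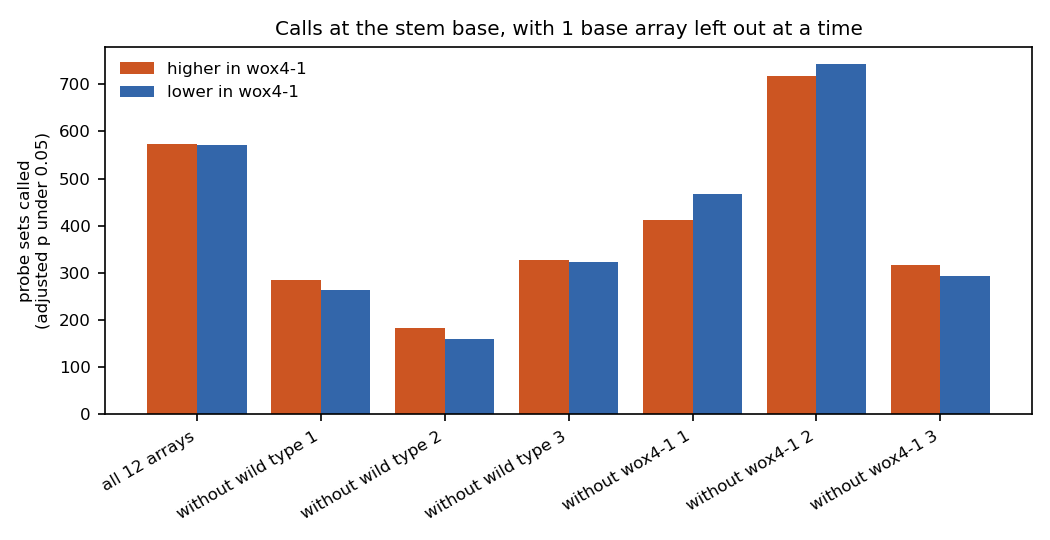
Number of probe sets called at the base (limma adjusted p under 0.05), higher and lower in wox4-1, with all 12 arrays and with each base array left out. The counts fall to 182 and 160 without wild-type replicate 2.

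Some control measures moved with genotype at the base. The actin control has 2 pairs of 3′ and 5′ probe sets. Their log2 difference (3′ minus 5′) was 1.44 to 1.51 in wild type and 1.22 to 1.33 in wox4-1 for one pair, without overlap, and 2.79 to 3.17 and 2.58 to 2.80 for the other, with overlap. The GAPDH and ubiquitin controls also overlapped between the genotypes. The 25S rRNA control read 9.81 to 9.90 in wild type and 8.93 to 9.29 in wox4-1, and array medians were 5.64 to 5.66 and 5.56 to 5.61. Apart from the median centring above, the part of these measures in the genotype results was not tested. Correlations between arrays were 0.992 to 0.996 within wild type, 0.992 to 0.996 within wox4-1 and 0.985 to 0.994 between them.

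Among genes with a name, AT2G10940 and AT3G46880 had the largest rises at the base. AT2G10940, of the lipid transfer protein family of small secreted proteins, read 4.90, 4.44 and 5.61 in wild type and 6.78, 7.32 and 7.13 in wox4-1. The groups did not overlap, and the gene rose 4.27-fold (log2 2.09, SE 0.28, limma adjusted p 0.00141), or by 1.82 without wild-type replicate 2. AT3G46880 read 5.47, 5.28 and 6.31 against 6.98, 7.25 and 7.17, a rise of 1.45 (SE 0.20, limma adjusted p 0.00182). Wild-type replicate 3 was the closest to the mutant in both genes.

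AT5G63180, of the pectin lyase-like family, whose members cut pectin of the cell wall, read 6.34, 6.07 and 6.23 in wild type and 7.53, 7.60 and 7.67 in wox4-1. Its arrays lay close together in each group, and it rose 2.61-fold (log2 1.39, SE 0.10, limma adjusted p 5.01e-05, and 1.31 without wild-type replicate 2). AT4G23820, of the same family, read 7.09, 7.08 and 7.32 against 8.28, 8.11 and 8.22, a rise of 1.04 (SE 0.10, limma adjusted p 0.000212). Another member moved the other way: AT1G60590 read 8.75, 8.61 and 8.75 in wild type and 7.44, 7.72 and 7.61 in wox4-1, and fell by 1.11 (SE 0.12, limma adjusted p 0.00032). These members were picked for the size of their changes, and the family was not counted as a whole. On the pectin enzymes list none of 3 genes was called (median 0.03).

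GDSL-type lipase and esterase genes, whose products act on lipids and wall esters outside the cell, were also among the largest changes in both directions. This family was not counted as a whole either. AT3G16370 read 7.76, 7.52 and 7.46 in wild type and 8.76, 8.55 and 8.48 in wox4-1, a rise of 1.02 (SE 0.13, limma adjusted p 0.0012). AT5G45670 rose by 1.07 (SE 0.11, limma adjusted p 0.000236; 0.98 without wild-type replicate 2). This change is limited by the low end, where its wild-type arrays read 3.89, 3.56 and 3.75. AT1G54020 read 6.65, 6.94 and 6.71 in wild type and 4.78, 5.39 and 4.17 in wox4-1, and fell by 1.99 (SE 0.29, limma adjusted p 0.00205; -1.90 without wild-type replicate 2). The mutant arrays of AT1G54020 spread widely but all lay under the wild-type arrays.

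The X8 domain, which binds callose in some plant proteins, is found in AT5G35740, which read 7.54, 7.71 and 7.53 in wild type and 8.98, 8.66 and 8.73 in wox4-1. It rose by 1.20 (SE 0.11, limma adjusted p 0.000176). AT2G43670, of the same family, fell by 1.21 (SE 0.13, limma adjusted p 0.000432), a change limited by the low end, with mutant arrays at 4.10, 3.43 and 3.76. GLC, which encodes a BAHD acyltransferase, read 6.13, 5.66 and 5.66 against 7.16, 7.24 and 6.76, a rise of 1.23 (SE 0.18, limma adjusted p 0.00205).

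AT5G48490 (a DIR1-like lipid transfer protein), AT1G12845, AT2G47010, AT2G18480 (polyol transporter family), AT5G40630, AT1G06830 (glutaredoxin family) and AT3G13650 (dirigent family) rose by 1.02 to 1.32. The 15 largest rises among genes called with and without wild-type replicate 2 ran from 1.02 to 2.09, and from 0.93 to 1.82 without that array.

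Among the falls, JAL23, for a jacalin-related lectin that associates with the PYK10 glucosidase complex, read 9.63, 9.94 and 9.59 in wild type and 8.26, 8.77 and 8.49 in wox4-1. It fell by 1.21 (SE 0.14, limma adjusted p 0.000481) and was the 1 called of 7 genes on the PYK10 complex list (median -0.02). Of the 7, 3 lay at the low end in both base groups. GID1A, a receptor for the growth hormone gibberellin, read 8.46, 8.44 and 8.62 against 7.85, 7.66 and 7.40, and fell by 0.87 (SE 0.12, limma adjusted p 0.00151; -0.90 without wild-type replicate 2). The other gibberellin genes on the list were not called: GID1B differed by -0.40 (limma adjusted p 0.0546), GID1C by -0.40 (limma adjusted p 0.0874) and SPY, a repressor of gibberellin response, by -0.35 (limma adjusted p 0.218). All 4 differences had the same sign.

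BGLU33, of the beta-glucosidase family, fell by 0.87 (SE 0.11, limma adjusted p 0.0012), from 9.45, 9.41 and 9.52 to 8.35, 8.73 and 8.70. AT4G27450, of an aluminium-induced protein family, fell by 1.02 (SE 0.18, limma adjusted p 0.00615), from 10.24, 10.22 and 10.38 to 9.45, 9.13 and 9.20. AT1G31040, which encodes a PLATZ zinc-binding factor, fell by 0.94 (SE 0.11, limma adjusted p 0.000553). The other falls in this set were AT2G28780, AT4G30830, AT1G64370, AT4G29700, AT4G22212 (defensin-like), AT1G06720 and AT1G06620 (an oxygenase family), at -1.40 to -0.88. The 15 falls ran from -1.99 to -0.87, and from -1.90 to -0.76 without wild-type replicate 2. All 30 genes were called with any single base array left out, which for wild-type replicate 2 was fixed by the way they were chosen. Some of the 30 lost their call in other fits, with limma adjusted p up to 0.2 (AT5G48490).

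**Figure D3:**
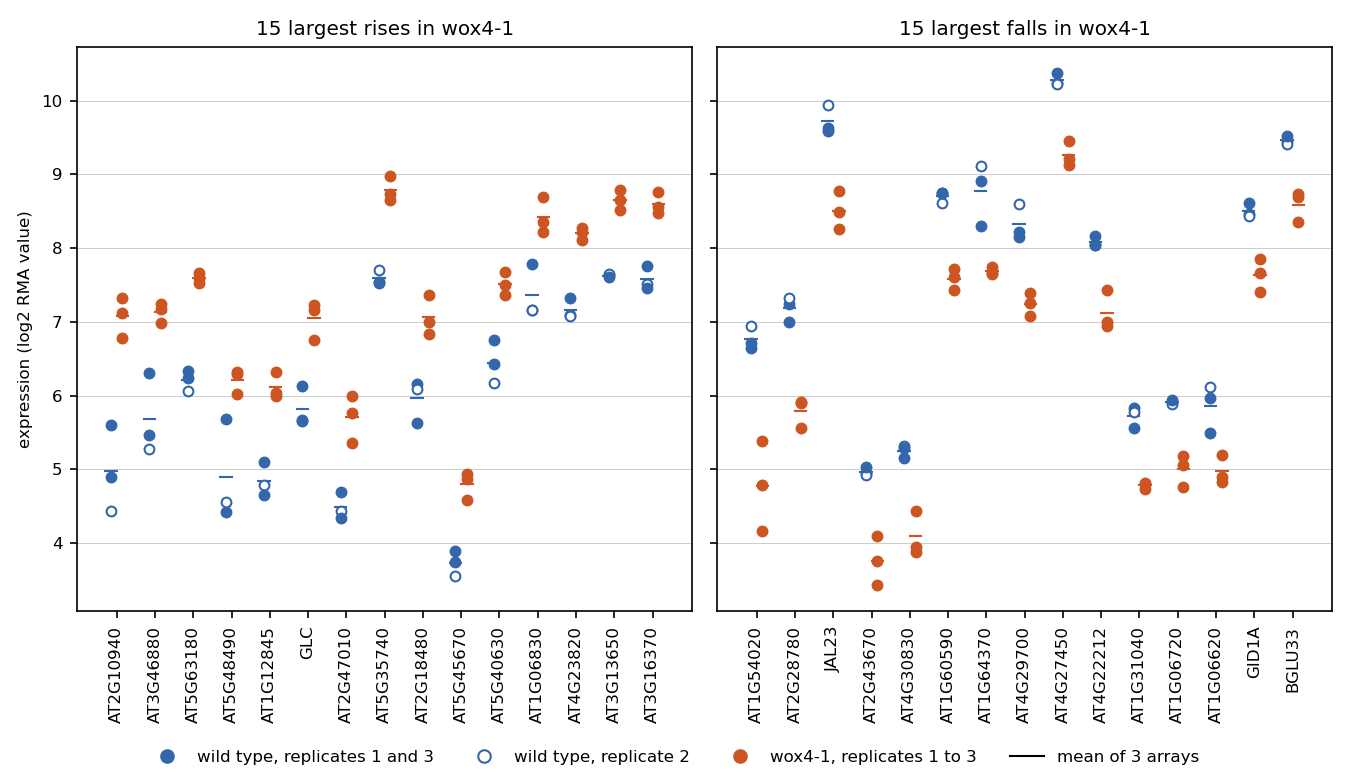
Log2 RMA values on the 6 base arrays for the 15 largest rises and 15 largest falls, with open circles for wild-type replicate 2 and short lines for the means of 3 arrays. The genes were chosen so that the wild-type and wox4-1 arrays do not overlap, and AT2G10940 reads at most 5.61 in wild type and at least 6.78 in wox4-1.

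Other large differences lost their call without wild-type replicate 2 although that array was not extreme in them. AT2G19970, of the PR-1-like CAP family, read 8.09, 8.20 and 8.16 in wild type and 9.23, 8.98 and 8.98 in wox4-1, a rise of 0.91 (SE 0.19, limma adjusted p 0.0192) that was 0.93 without the array (limma adjusted p 0.0604). AT4G39840 went from 0.87 to 0.86 (limma adjusted p 0.0197 and 0.0709), and AT1G54890 from 0.90 to 0.89 (0.0269 and 0.0944). AT1G54890 read 4.86, 4.83 and 4.88 in wild type and 6.46, 5.49 and 5.32 in wox4-1. With mutant replicate 1 far above the others, its change ranged from 0.54 to 1.12 over the alternative fits. In these 3 genes the size of the difference was kept without wild-type replicate 2 and the p-value rose. AT4G14020 is the contrary case, with -1.01 becoming -0.77 (limma adjusted p 0.0149 and 0.0581), since wild-type replicate 2 read 5.33 against 4.54 and 4.64. Its change is limited by the low end. AT3G11930, of the universal stress protein family, went from -1.03 to -0.97 (0.0132 and 0.062), and the carnitine transporter gene OCT1 from -0.89 to -0.86 (0.0334 and 0.115).

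Tissue lists were read next, by counts and medians, beside a median of 0.03 and 4.45% called over all probe sets with 1 gene. The 44 lists with measured members hold 481 distinct probe sets, of which 39 were called (8.11%), 25 higher and 14 lower. Without wild-type replicate 2, 11 of them were called, when 342 of all 22746 probe sets (1.5%) were. Because the lists were chosen with earlier results of these data known, their share called is not a result about the lists. The share of positive differences over all probe sets is not given here, so counts of signs within lists, above and below, have no background. In 19 lists no member was called. Cambium signalling had 1 of 6 members higher and none lower (median 0.04). The ligand gene CLE44 read 6.29, 6.27 and 6.12 in wild type and 6.96, 6.58 and 6.60 in wox4-1 and rose by 0.48 (SE 0.11, limma adjusted p 0.0275), a call not kept without wild-type replicate 2 (0.50, limma adjusted p 0.0806). CLE41, for the same peptide, read 9.48, 9.38 and 9.41 against 9.69, 9.53 and 9.44 and differed by 0.13 (limma adjusted p 0.433), with overlap between the groups.

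The receptor kinases on the list were not called. MOL1, known to restrain the cambium, read 7.55, 7.52 and 7.69 in wild type and 7.50, 7.23 and 7.15 in wox4-1, a difference of -0.29 (SE 0.11, limma adjusted p 0.154). AT1G08590 and AT4G28650, known as the PXY-like kinases PXL1 and PXL2, differed by 0.07 and 0.02 (limma adjusted p 0.771 and 0.944), the second near the low end. PHV, a homeobox factor of vascular patterning, differed by -0.10 (limma adjusted p 0.625). PXY itself is not among the named probe sets used here.

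Cell division genes had 1 of 8 members higher and 1 lower (median -0.20). BUBR1, of the spindle checkpoint, fell by 0.44 (SE 0.11, limma adjusted p 0.039), and SIM, an inhibitor of cyclin-dependent kinases, rose by 0.36 (SE 0.09, limma adjusted p 0.0377). Both lost their calls without wild-type replicate 2 (limma adjusted p 0.136 and 0.0587). AUR2, an Aurora kinase gene, differed by -0.38 (limma adjusted p 0.128), and 6 of the 8 differences were negative. Among 7 histone genes 1 fell: HTR12, the centromeric histone, by 0.38 (limma adjusted p 0.044, and 0.182 without wild-type replicate 2), with both means at the low end. HIS1-3, a linker histone gene induced by drought, read 6.89, 7.57 and 4.84 in wild type and 4.51 to 4.64 in wox4-1 and was not called (-1.84, limma adjusted p 0.0567).

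Xylem and secondary wall genes had 1 of 4 members higher (median 0.37). IRX15-L, needed for xylan of the secondary wall, read 10.67, 10.74 and 10.61 in wild type and 11.21, 10.93 and 11.03 in wox4-1 and rose by 0.38 (SE 0.09, limma adjusted p 0.0281; 0.0681 without wild-type replicate 2). Its relative IRX15 differed by 0.40 (limma adjusted p 0.0898) and the xylan synthesis gene GUT2 by 0.35 (0.0915). The smallest difference of the 4 members was 0.06. In the phloem list OPS, which promotes protophloem, fell by 0.52 (SE 0.12, limma adjusted p 0.0233), and SWEET13, a sucrose exporter, rose by 0.80 (SE 0.18, limma adjusted p 0.0268). LHW, a bHLH factor that sets the number of vascular cells, fell by 0.54 (SE 0.11, limma adjusted p 0.0129), from 8.59, 8.60 and 8.55 to 8.02, 8.13 and 7.97. None of these 3 calls was kept without wild-type replicate 2, with limma adjusted p of 0.0747, 0.116 and 0.0577.

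Lignin genes had 1 higher and 1 lower of 10 (median 0.01). BGLU46, a glucosidase that frees monolignols, the building blocks of lignin, read 8.57, 8.66 and 8.72 in wild type and 8.04, 8.03 and 8.13 in wox4-1 and fell by 0.58 (SE 0.09, limma adjusted p 0.00281; 0.0166 without wild-type replicate 2). UGT72E2, a monolignol glucosyltransferase, rose by 0.46 (SE 0.12, limma adjusted p 0.0384), which was 0.114 without that array. The UGT family of glycosyltransferases had 2 higher and 2 lower of 47, with none called without it.

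Wall loosening and growth genes moved upward in single members. Of 18 expansins 3 rose and none fell (median 0.18). EXPA15 rose from 10.58, 10.39 and 10.80 to 11.21, 11.50 and 11.16 (0.70, SE 0.12, limma adjusted p 0.00635). EXPB3 rose by 0.58 and EXPB1 by 0.48, the latter limited by the low end. EXPA15 alone was called without wild-type replicate 2 (0.60, limma adjusted p 0.0372). Of 22 genes of the TBL family, which acetylate wall polymers, 3 rose and 1 fell, with TBL38 higher by 0.60 (SE 0.11, limma adjusted p 0.00716) and TBL36 lower by 0.40 (SE 0.10, limma adjusted p 0.0389). CSLC04, which makes the xyloglucan backbone, rose by 0.46 (limma adjusted p 0.0352) and the glucanase gene GH9B7 by 0.40 (0.037), the single calls among 13 and 15 members. TBL38 was called without wild-type replicate 2 (limma adjusted p 0.0443), whereas TBL36, CSLC04 and GH9B7 were not (0.134, 0.133 and 0.14).

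Cytoskeletal genes held 1 rise and 1 fall. TUB1, a beta-tubulin gene, read 7.38, 7.40 and 7.44 in wild type and 8.45, 8.35 and 8.44 in wox4-1 and rose 2.01-fold (log2 1.00, SE 0.08, limma adjusted p 6.59e-05), and by 1.00 without wild-type replicate 2. SP1L2, of the microtubule-associated SPIRAL1 family, read 9.46, 9.48 and 9.43 against 8.94, 8.49 and 8.51 and fell by 0.81 (SE 0.11, limma adjusted p 0.00126). Of 12 tubulin and SPIRAL1 genes these 2 were called (median 0.04). TUB1 and SP1L2 were called with any single base array left out.

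Hormone and transport genes gave few calls. YUC6, an enzyme gene of auxin synthesis, was the 1 called of 18 auxin genes: it read 4.17, 3.90 and 4.37 in wild type and 4.83, 4.84 and 5.08 in wox4-1 and rose by 0.77 (SE 0.11, limma adjusted p 0.00221; 0.0111 without wild-type replicate 2). MYC3, a jasmonate response factor, fell by 0.41 (limma adjusted p 0.0449, and 0.159 without wild-type replicate 2), 1 of 10 jasmonate genes. Of 17 sugar transporters 3 rose: SWEET13, above, SWEET2 by 0.60 (SE 0.12, limma adjusted p 0.0113) and the vacuolar transporter gene TMT1 by 0.33 (0.0306), of which SWEET2 was called without the array (0.0348) and SWEET13 and TMT1 were not (0.116 and 0.0997). None of 3 cytokinin genes and none of 3 ethylene genes was called.

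Photosynthesis genes had 3 of 16 members higher and none lower, and 15 of 16 differences were positive (median 0.19). PSAN and PSAE-1, of photosystem I, rose by 0.45 and 0.33 and CHLI2, of chlorophyll synthesis, by 0.40, at limma adjusted p of 0.0358, 0.0446 and 0.0362, and none of them was called without wild-type replicate 2. The mean level of the list at the base was 9.08 to 9.15 on the wild-type arrays and 9.28 to 9.35 on the mutant arrays. In the internode, where no member was called, it was 9.55 to 9.64 and 9.65 to 9.76. Plastid-encoded genes had 1 of 69 lower, rps15 by 0.29 (limma adjusted p 0.0496, and 0.158 without wild-type replicate 2), and a median of 0.03. The mean level of the 3 root markers was 3.20 to 3.44 on the base arrays, and that of the 3 flower and pollen markers 3.53 to 3.70. All 3 root markers and 2 of the flower and pollen markers lay at the low end in both base groups. No member of 42 MADS factors, 24 cytochrome P450s or 9 flavonoid genes was called.

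Further lists held single called members. BLT, which controls trichome branching, rose by 0.50 (SE 0.12, limma adjusted p 0.0287) from 4.47, 4.14 and 4.27 to 4.77, 4.64 and 4.97, and was 1 of 6 epidermis genes called. Of 4 trichome genes BLT and SIM were called. CML23, for a calmodulin-like calcium sensor, rose by 0.58 (SE 0.14, limma adjusted p 0.0283), 1 of 14 genes of calcium and early stress, and was called without wild-type replicate 2 (0.68, limma adjusted p 0.0372). GSTU18, 1 of 13 glutathione transferase genes, rose by 0.43 (limma adjusted p 0.0156). Among the UGT genes UGT74D1, whose enzyme glucosylates auxins, fell by 0.55 (SE 0.11, limma adjusted p 0.0119) from 6.12, 6.11 and 6.07 to 5.38, 5.56 and 5.72, UGT71C1 fell by 0.55 (0.044) and UGT84A4 rose by 0.43 (0.0376). BGLU40 rose by 0.44 (limma adjusted p 0.0277) while BGLU33 and BGLU46 fell, the 3 calls among 20 beta-glucosidase genes. TBL41 and TBL28 rose by 0.55 and 0.31 (limma adjusted p 0.044 and 0.0394). Without wild-type replicate 2 the calls of BLT, SIM, GSTU18, UGT74D1, UGT71C1, UGT84A4, BGLU40, TBL41 and TBL28 were lost, with limma adjusted p from 0.0529 (UGT74D1) to 0.171 (UGT71C1). No member of the lists for cold and dehydration (9 genes), hypoxia (4 genes), meristem and lateral organ growth (7 genes), LCR peptides (8 genes) or reference genes (3 genes) was called.

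**Figure D4:**
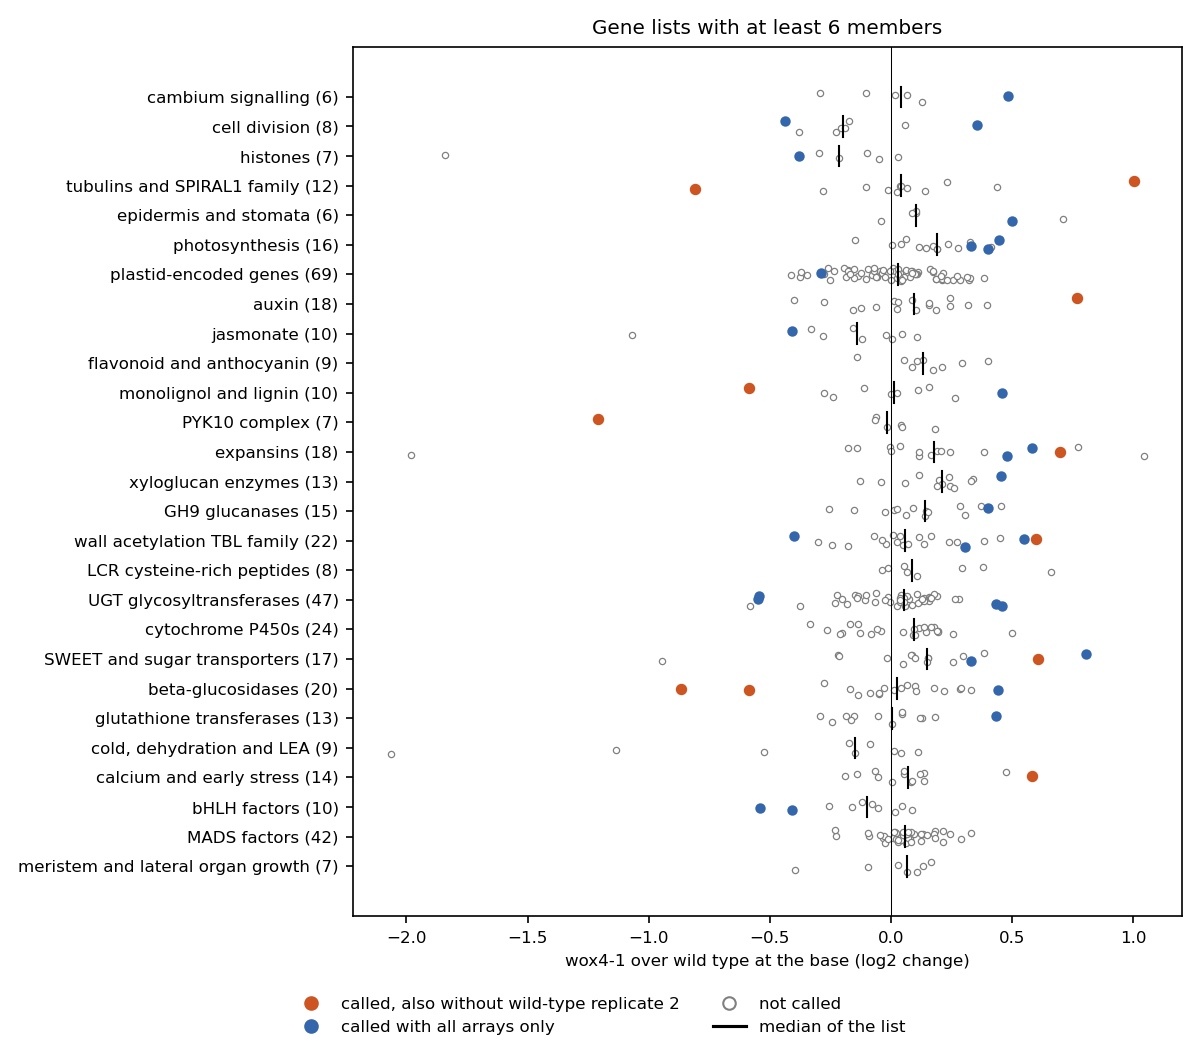
Log2 changes at the base (wox4-1 over wild type) of the members of each list with at least 6 members, with filled points for called members, the colour showing whether the call was kept without wild-type replicate 2, and a bar for the median. TUB1 at 1.00 and JAL23 at -1.21 are the called members farthest from 0.

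One internode array stood apart in its controls: on wox4-1 internode replicate 2 the 2 actin differences were 2.26 and 3.63, against at most 1.51 and 3.17 on the other 11 arrays, and its part in the internode results was not tested beyond leaving it out. In the internode 55 probe sets were called (0.242%), 25 higher and 30 lower. Of them 43 (78.2%) were also called at the base, which is 3.75% of the base calls, and all 55 had the same sign at the base. The count was 22 and 20 without wild-type internode replicate 1 and 2, 28, 30 and 20 without wox4-1 internode replicate 1, 2 and 3, and 110 without wox4-1 base replicate 1. Of the 1146 base calls, 1010 (88.1%) had the same sign in the internode, where their median change in the direction of the base was 0.18. The agreement in sign over all probe sets is not given here, so these shares have no background to be read against. A larger change at the base needs its own test. The difference between the genotype effects at the base and in the internode was called for 1 probe set (0.0044%), 250891_at, which is unnamed here, and 1827 (8.03%) had an unadjusted p under 0.05. At the base it read 3.91, 4.55 and 3.97 in wild type and 6.08, 5.97 and 6.10 in wox4-1, and rose by 1.90 (SE 0.16, limma adjusted p 7.87e-05; 2.11 without wild-type replicate 2). In the internode both genotypes lay at the low end, with means of 3.40 and 3.24, and the difference between positions was 2.07 (SE 0.23, limma adjusted p 0.00912). It was called at the base with any single base array left out, but the count for the difference was 0 in the limma fit without wox4-1 internode replicate 2 and in that without wox4-1 internode replicate 3 (limma adjusted p 0.0555 and 0.0507 for this probe set). Same-numbered wild-type arrays of the 2 positions deviated together, with correlations of 0.294, 0.592 and 0.308, while those of wox4-1 had 0.136, 0.240 and -0.050. With the replicate number as a block within each genotype, 5 probe sets were called for the difference, among them 250891_at, AT1G60590 and AT1G62770.

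Of the 30 genes with the largest base changes, 15 of 15 rises and 13 of 15 falls had the same sign in the internode, and 1 and 6 of them were called there. AT1G54020 fell by 2.58 in the internode (limma adjusted p 0.00355) and by 1.99 at the base, and JAL23 by 1.13 (0.00406) and 1.21. Neither difference between positions was called (limma adjusted p 0.72 and 0.932). In the internode AT5G63180 rose by 0.94 (limma adjusted p 0.00355) and GID1A fell by 0.73 (0.0233). YUC6 rose by 0.67 there (0.0276). AT1G60590 read 3.58 in wild type and 3.63 in wox4-1 in the internode, at the low end, and its difference between positions of -1.16 was not called (limma adjusted p 0.07), though it was in 3 of 21 alternative fits (range 0.0104 to 0.321). AT1G62770, of the invertase and pectin methylesterase inhibitor family, rose by 0.67 at the base (limma adjusted p 0.00869) and had -0.57 in the internode (0.0863), with a difference of 1.23 (limma adjusted p 0.07) that was not called either. It was called in 5 of 21 alternative fits (range 0.00245 to 0.419): without wox4-1 base replicate 3, with centred arrays, with robust eBayes, and with the replicate block across all groups or within each genotype. It was not called without wild-type base replicate 2 (0.165).

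**Figure D5:**
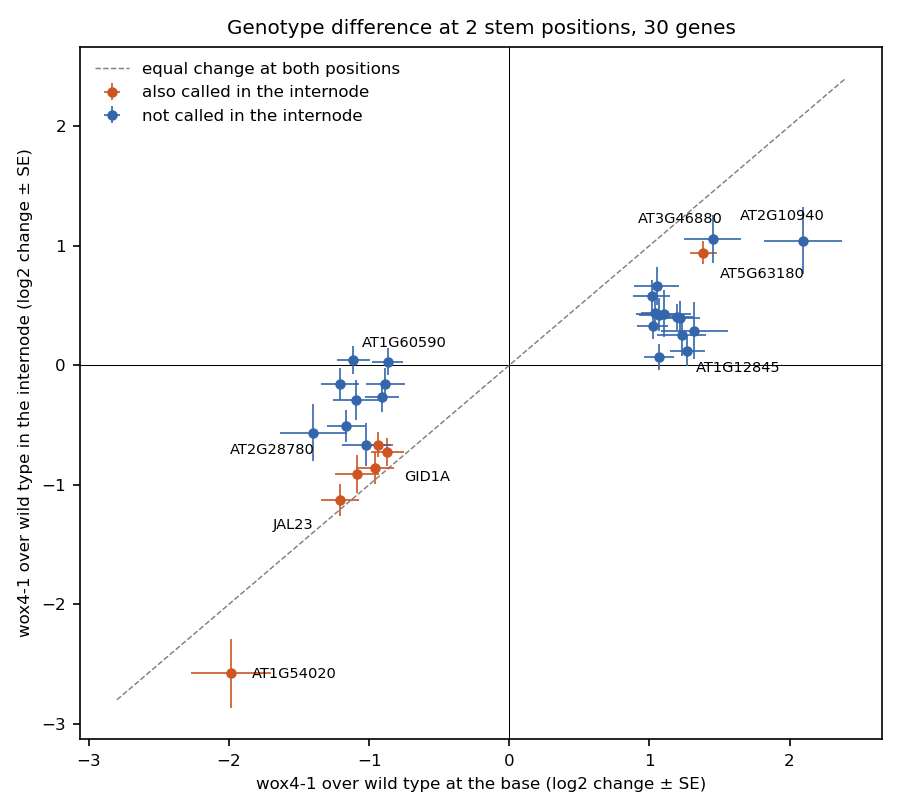
Log2 change of wox4-1 over wild type at the base (horizontal) and in the internode (vertical) for the 30 genes with the largest base changes, with limma standard errors. Of these, 15 of 15 rises and 13 of 15 falls have the same sign at both positions, and AT1G54020 lies at -1.99 and -2.58.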

How the data were processed

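Gene expression was measured on ATH1 arrays in 4 groups of 3 pools. The authors deposited 1 log2 value per probe set and array, made with RMA per the submitters' processing notes. RMA corrects background, normalises quantiles across arrays and summarises the probes of a set, which makes array distributions alike and compresses low values. The sources used here do not give its version or software. The number of arrays limits the precision.

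The deposited values were used unscaled. After 64 control probe sets were set aside, limma 3.58.1 in R 4.3.3 fitted 1 mean per group to all 12 arrays, with eBayes without trend or robust option and Benjamini-Hochberg adjustment over 22746 probe sets. The fit was also run on simulated data of independent normal values. These hold no outlying array and no deviations shared between arrays, so the run does not bear on either. The reference gene table held 13436 of the 13513 probe sets that have a single gene.

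Named genes were the 15 largest rises and 15 largest falls whose 3 mutant and 3 wild-type base arrays do not overlap and that were called with and without wild-type base replicate 2, the 3 largest each way called with it alone, up to 4 called members per list, all cambium signalling genes, and the 2 genes with the smallest p for the difference between positions. GID1B, GID1C, SPY, AUR2, HIS1-3, IRX15, GUT2 and the genes high on wild-type replicate 2 fall outside this rule and were named after their values were seen. The comparison and the 48 gene lists, of which 4 had no measured member, were chosen with earlier results of these data known.

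The labels give no pairing. By the correlation of deviations from group means, replicate numbers paired wild-type arrays across positions (every value over 0.1) but not those of wox4-1 or the 2 genotypes, and the blocked count is given beside the difference between positions. Alternatives left out arrays, used the 6 base arrays alone, centred arrays, filtered dim probe sets (mean under log2 5), or changed the variance model or the block. Unnamed probe sets were tested but not interpreted, and no sequences were used here.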

Additional observations from a re-analysis of the deposited data

Results flagged for a closer look

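Probe set 250891_at, which has no gene name here, was called for a difference between the 2 stem positions in its genotype effect. The effect at the base minus that in the internode was 2.07 on the log2 scale (SE 0.23, limma adjusted p 0.00912), from 1.90 at the base (SE 0.16) and -0.17 in the internode (SE 0.16). Its 3 mutant base arrays read 5.97 to 6.10 and its 3 wild-type base arrays 3.91 to 4.55, while its internode arrays read 3.08 to 3.68.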

How the results depend on the processing

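The count of calls at the base, 1146, ranged from 342 to 1459 with 1 base array left out. It was 403 with the 6 base arrays alone, 92 with these and without wild-type base replicate 2, 282 without both wild-type replicate 2 arrays, and 262 without wild-type base replicate 2 and wox4-1 base replicate 1 together, where fewer arrays enter the fit. With the replicate number as a block within each position 738 were called, and 1245 with a block across all groups. Equal numbers are not a pairing between genotypes at the base: deviations of same-numbered base arrays from their group means correlated at -0.049, -0.057 and 0.015, and 0 of 6 base arrays correlated best with their own number in the other genotype. The internode count of 55 ranged from 20 to 110 with 1 array left out and was 25 without both wild-type replicate 2 arrays. The count of 1 for the difference between positions ranged from 0 to 3 with 1 array left out. It was 0 with the dim filter and 0 with the replicate block within each position, 3 with the block across all groups, 5 with a replicate block within each genotype, 5 with robust eBayes, 7 with centred arrays, and 3 without wild-type base replicate 2 and wox4-1 base replicate 1 together. The fit without wild-type base replicate 2 and wox4-1 base replicate 1 together, the base arrays alone without wild-type replicate 2 and the block within each genotype were chosen after seeing the data. Of the named genes, AT1G08590 and AT4G28650, neither of them called, turned sign. With 1 base array left out AT1G08590 ranged from -0.015 (without wox4-1 base replicate 1) to 0.185, and had -0.077 without that array and wild-type base replicate 2 together. AT4G28650 ranged from -0.063 (without wild-type base replicate 2) to 0.144, with negative values also without wild-type base replicate 3 and without wox4-1 base replicate 3. It had -0.063 with the base arrays alone and without wild-type base replicate 2, -0.063 without both wild-type replicate 2 arrays and -0.061 without wild-type base replicate 2 and wox4-1 base replicate 1 together. The cause of these changes was not tested. Dim probe sets limit what can be seen: 2.49% of those with a mean under log2 5 were called.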
